A study of Mus musculus with 21 samples.

Results

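Neuronal nuclei from the cortex of Scn2a+/- mice that carried a CRISPR activation vector were compared with neuronal nuclei of other Scn2a+/- mice, across all genes measured. The members are 6 of the 21 libraries in the series, chosen by genotype and treatment as labelled. The Het CRISPRa group held 3 Scn2a+/- libraries, from mice given 500 nL of recombinant adeno-associated virus (rAAV) in the medial prefrontal cortex. That virus was an equal mixture of a guide RNA vector and a sadCas9-VP64 vector, and the mice were used 4 weeks after the injection. The Het group held 3 Scn2a+/- libraries, and 3 WT libraries were measured beside them. The labels put all mice on a C57BL/6J background and do not say whether Het or WT mice received any injection. The virus, the surgery and the activator therefore cannot be told apart as differences between the groups, and ages are not given in the sources used here. Each library came from 200 mg of cortex, from which NeuN-positive nuclei were sorted, and polyA RNA was sequenced. The dissected cortex was not stated to be limited to the injected region. Nothing in the labels beyond the replicate numbers says that libraries came from separate animals, so that p-values measure the spread between these libraries, which may in part be technical.

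Scn2a encodes the sodium channel alpha subunit Nav1.2, which carries action potentials in excitatory cortical neurons and sits in the axon initial segment and, in mature neurons, in the dendrites. Loss of one copy in people is a known cause of autism and intellectual disability. CRISPR activation uses a Cas9 that cannot cut, here that of Staphylococcus aureus (sadCas9), fused to the activator VP64, and a guide RNA brings it to a promoter so that the remaining normal copy is transcribed more. The comparison asks how RNA levels in Scn2a+/- neurons differ with the activator present.

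The guide sequence and its position are not given in the sources used here. The 250 bases before the 2 Scn2a transcription starts in RefSeq (build GRCm38.p6, plus strand) are shown because an activating guide needs the sequence motif of this Cas9 near such a start. Capitals mark every match on either strand, overlapping matches included, to NNGAAT and to the forms of it whose last letters are GAGT, or GGAT, or else GGGT. The first window is chr2:65620519-65620768 and the second chr2:65668436-65668685.
Scn2a upstream start: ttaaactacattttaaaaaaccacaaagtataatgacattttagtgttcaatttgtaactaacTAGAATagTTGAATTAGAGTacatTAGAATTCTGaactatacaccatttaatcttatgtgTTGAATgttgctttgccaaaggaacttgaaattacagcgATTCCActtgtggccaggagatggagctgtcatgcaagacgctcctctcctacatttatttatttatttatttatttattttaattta
Scn2a downstream start: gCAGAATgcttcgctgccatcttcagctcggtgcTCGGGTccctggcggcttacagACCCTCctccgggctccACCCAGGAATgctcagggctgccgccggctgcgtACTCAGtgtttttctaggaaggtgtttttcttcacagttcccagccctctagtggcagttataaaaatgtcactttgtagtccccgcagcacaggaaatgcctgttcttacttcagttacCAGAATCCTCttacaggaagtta
The first window held 7 matches with a GC content of 29.6%, and the second held 8 with a GC content of 53.2%. Over 32851 promoter windows of the same length the median was 7 matches, and 99.7% held at least 1. The motif is thus as common before Scn2a as before other genes, and a match is not a guide site.

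The deposited levels are CPM, reads of a gene in every 1e+06 reads (M) of its library, and the estimated depth was 16.1 to 17.9 M reads in the Het CRISPRa libraries, 16.5 to 20.1 M in Het and 15.5 to 19.7 M in WT. Each difference is Het CRISPRa minus Het in log2(CPM + 0.5) and stands beside its SE from limma. Changes of genes with few reads come out smaller on this scale than they are. P-values from limma were adjusted by the Benjamini-Hochberg method across the 18967 genes tested. The share of reads from mitochondrially encoded genes was 0.733, 0.790 and 0.830% in Het CRISPRa, 1.88, 1.41 and 0.892% in Het replicates 1, 2 and 3, and 0.773 to 1.23% in WT. Features above 0 numbered 26118 to 28228 in Het CRISPRa, 25410 to 25801 in Het and 28109 to 28272 in WT. Features at 1 read numbered 2095 to 2999 in Het CRISPRa, 1266 to 2046 in Het and 2886 to 3143 in WT. For each of these measures the Het CRISPRa and Het libraries did not overlap. The 12 neuronal markers summed to 3045 to 3488 CPM in Het CRISPRa and 3118 to 3334 CPM in Het, with Rbfox3, the gene of the NeuN antigen, at 260 to 279 CPM in Het CRISPRa and 288 to 358 CPM in Het. The 12 astrocyte markers summed to 284.8 to 309.1 CPM in Het CRISPRa and 266.3 to 321.4 CPM in Het, most of it from the glutamate transporter gene Slc1a2, at 241 to 261 CPM in Het CRISPRa and 216 to 271 CPM in Het. The astrocyte marker Aqp4 lay at 1.15 to 1.55 CPM in Het CRISPRa and 0.969 to 1.54 CPM in Het. The summed oligodendrocyte markers lay at 107.5 to 115.6 CPM in Het CRISPRa and 109.4 to 128.1 CPM in Het. In sorted bulk nuclei, fewer nuclei of a type and less RNA per nucleus cannot be told apart.

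The vector RNAs were found in the Het CRISPRa libraries alone among the 9. The sadCas9Vp64 feature, the activator itself, was at 7.12, 4.09 and 4.40 CPM in Het CRISPRa replicates 1, 2 and 3 and was listed at 0 in all Het and WT libraries. The McherryPuro feature, named for the fluorescent protein mCherry and puromycin resistance, was at 1.84, 1.61 and 1.45 CPM in Het CRISPRa and was likewise listed at 0 in all Het and WT libraries. An estimated 66 to 124 reads per library fell on the activator, and the groups did not overlap for either feature. The exact two-sided permutation p was 0.1 for each, the smallest that 3 against 3 libraries can give. A count of 0 in a Het library allows a level of up to 0.149 to 0.182 CPM, counting error only.

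Scn2a was at 257.7, 291.3 and 265.0 CPM in Het CRISPRa, against 203.3, 225.5 and 260.3 CPM in Het. WT libraries lay at 229.5, 255.4 and 266.0 CPM. Het replicate 3 stood within the Het CRISPRa range, so that the groups overlapped, and the other 2 Het libraries stood below it. Het CRISPRa averaged 271 ± 17.7 CPM, Het 230 ± 28.7 CPM and WT 250.3 ± 18.8 CPM (SD over 3 libraries of a group). The log2 difference was 0.25 ± 0.11 (95% interval 0.02 to 0.48), a ratio of means of 1.18, with an adjusted p of 0.810 in limma and an exact permutation p of 0.2. Scn2a therefore did not pass the threshold over all genes, and its interval reaches from near 0 to 0.48. The authors' deposited table gives it a log2 fold change of 0.213 with an SE of 0.125 and an adjusted p of 1.

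**Figure D1:**
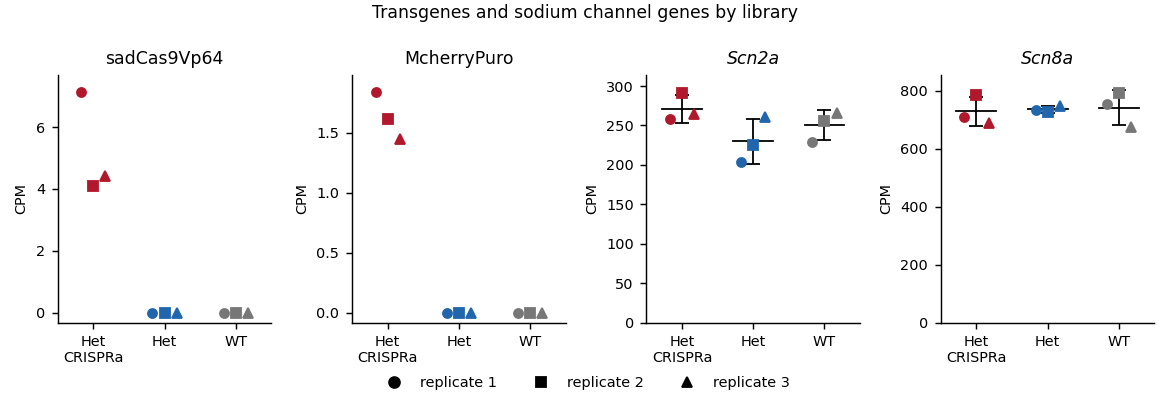
CPM of the 2 vector features, Scn2a and Scn8a in each library, with Het CRISPRa left, Het in the middle and WT right. Points are libraries, and lines and bars are the mean and SD where drawn. The vector features are above 0 in Het CRISPRa alone, while Scn2a at 257.7 to 291.3 CPM in Het CRISPRa overlaps Het at 203.3 to 260.3 CPM.

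The other voltage-gated sodium channel genes gave no call: with Scn2a, 0 of 13 tested passed in limma, against 0.0422% of all genes, and none is called in the authors' deposited table. Scn2a was the 1 gene of the 13 with an unadjusted p under 0.05. The adult neuronal channel gene Scn8a (Nav1.6) was at 710.1, 784.6 and 689.4 CPM in Het CRISPRa and 731.9, 726.2 and 747.3 CPM in Het, a log2 difference of -0.02 ± 0.09 with a 95% interval of -0.21 to 0.18. Scn1a (Nav1.1), the channel of fast-spiking interneurons, differed by -0.05 ± 0.10, with an interval of -0.28 to 0.17. Scn3a (Nav1.3), which is high early in development, differed by 0.08 ± 0.12, with an interval of -0.19 to 0.35. All 3 overlapped between the groups. The accessory subunit gene Scn4b had a difference of 0.56 ± 0.44, with 50.2, 32.8 and 38.1 CPM in Het CRISPRa and 11.9, 33.5 and 48.1 CPM in Het. Scn4b was low in Het replicate 1 and high in Het replicate 3, as the striatal markers were, and the part of those markers was not tested. The median of the 13 was 0.11, beside 0.04 over all genes tested.

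No gene on chromosome 2 around Scn2a passed either, 0 of 16 tested in limma and 1, Kcnh7, with an unadjusted p under 0.05, and none is called in the authors' deposited table. Kcnh7, a potassium channel gene of the ERG family, was at 110.1, 116.1 and 98.7 CPM in Het CRISPRa and 66.7, 91.2 and 92.0 CPM in Het, 0.39 ± 0.13 with an adjusted p of 0.810. These libraries did not overlap, and WT lay at 93.9 to 111.5 CPM, above 3 of 3 Het libraries. Grb14, an adaptor of the insulin receptor, had the lowest difference, -0.49 ± 0.25. Its levels were 33.4, 30.6 and 30.2 CPM in Het CRISPRa and 61.4, 44.4 and 32.0 CPM in Het. The nearby genes Scn3a, Csrnp3 and Galnt3 differed by 0.08 ± 0.12, 0.18 ± 0.15 and 0.28 ± 0.20. The median of the 16 was 0.12, and 1 did not overlap upwards and 1, B3galt1, downwards, beside 5.37% and 4.61% of all genes.

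Across all genes, 8 of 18967 (0.0422%) passed an adjusted p of 0.05 in limma, 1 higher (0.00527%) and 7 lower (0.0369%) in Het CRISPRa. The unadjusted p was under 0.05 for 996 genes (5.25%), 516 higher (2.72%) and 480 lower (2.53%), a share close to the threshold itself. The difference was below 0 for 8203 genes (43.2%), so that most genes were slightly above 0. No named protein-coding gene of known function was among the 8. Without Het CRISPRa replicate 2, replicate 3 or Het replicate 2 the count was 0, without Het CRISPRa replicate 1 it was 1, and without Het replicate 1 it was 5. Without Het replicate 3 it was 38, of which 35 were lower. In data simulated from these libraries, 43% of 100 genes changed by 2-fold and 19% of 100 changed by 1.5-fold were recovered over 18967 genes, so that many changes of that size would be missed with 3 libraries a group. In the same simulation 5 unchanged genes were called.

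**Figure D2:**
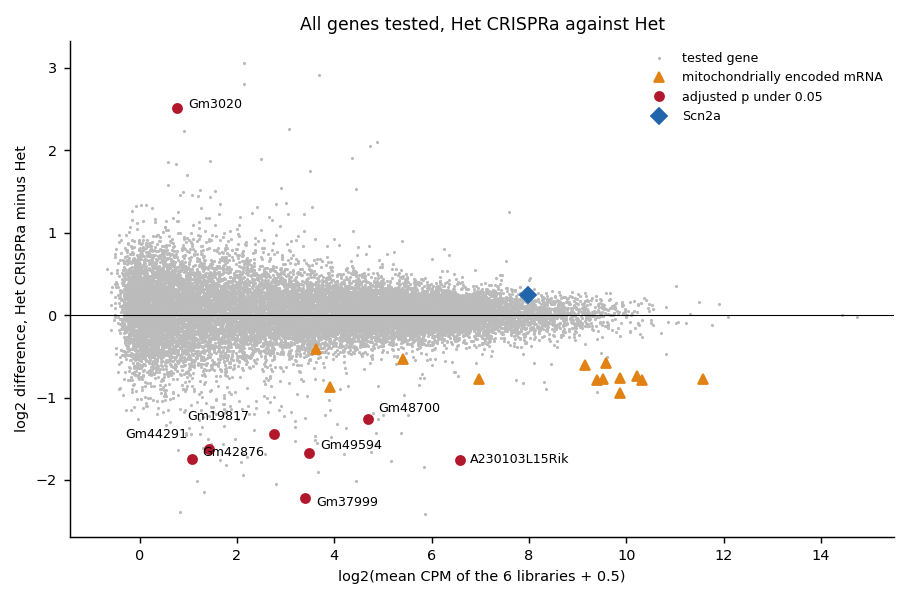
Log2 difference, Het CRISPRa minus Het, against the log2 mean level of the 6 libraries, for 18967 tested genes. Red points are the 8 genes with an adjusted p under 0.05, of which 7 lie below 0, orange triangles are the 13 mitochondrially encoded mRNAs, and the blue diamond is Scn2a at 0.25.

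The 7 loci that fell were noncoding or unnamed. The highest was A230103L15Rik, at 48.0, 45.5 and 33.7 CPM in Het CRISPRa and 198, 135 and 108 CPM in Het, -1.75 ± 0.23 with an adjusted p of 0.0244. WT lay between them at 93.8, 64.8 and 54.5 CPM. In the GENCODE annotation of GRCm38 it is a TEC locus, a class for transcribed loci that still await experimental proof, on the minus strand of chromosome 7 within Snhg14. That long noncoding host of small nucleolar RNAs runs antisense to the imprinted gene Ube3a, which is silenced on the paternal copy in neurons. Snhg14 itself was at 235, 232 and 217 CPM in Het CRISPRa and 229, 216 and 273 CPM in Het, a difference of -0.06 ± 0.11, and Ube3a differed by 0.22 ± 0.18. For both genes the groups overlapped.

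The other 6 lie in introns of protein-coding genes, on the strand of the host gene, and none of the hosts passed the threshold. Gm37999, in Khdrbs2, a splicing factor gene, was at 3.73, 3.91 and 2.12 CPM in Het CRISPRa and 21.6, 16.3 and 12.9 CPM in Het, -2.22 ± 0.28 with an adjusted p of 0.0226. Khdrbs2 differed by -0.11 ± 0.23. Gm48700, in the presynaptic adhesion gene Nrxn3, was at 17.3, 12.6 and 14.1 CPM in Het CRISPRa and 34.8, 33.4 and 38.9 CPM in Het, -1.26 ± 0.15 with an adjusted p of 0.0128. Nrxn3 had means of 268 CPM in both groups and a difference of -0.01 ± 0.09. Gm48700 was highest in Het replicate 3 and Gm37999 in Het replicate 1.

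The remaining 4 were named after their values were seen. Gm49594 is annotated as a processed pseudogene in Kalrn, an exchange factor of dendritic spines, at 4.58, 3.48 and 6.91 CPM in Het CRISPRa and 18.3, 15.7 and 15.3 CPM in Het. Its difference was -1.67 ± 0.25 with an adjusted p of 0.0459, while Kalrn stood at 1025 CPM in both groups, and reads of a pseudogene may belong to its parent gene. Gm19817, in the microtubule kinase gene Dclk1, was at 2.93, 4.09 and 2.51 CPM in Het CRISPRa and 9.07, 10.8 and 8.41 CPM in Het, -1.45 ± 0.21. For both loci all Het CRISPRa libraries stood below all Het libraries. Gm44291, in the endocytic gene Dennd1a, was at 0.804, 0.868 and 0.725 CPM in Het CRISPRa and 4.39, 3.09 and 3.13 CPM in Het, -1.62 ± 0.24. Gm42876, in Tbck, was at 0.345, 0.434 and 0.613 CPM in Het CRISPRa and 2.79, 2.60 and 2.79 CPM in Het, -1.75 ± 0.24. The adjusted p-values of these last 3 were 0.0434, 0.0434 and 0.0268, and their hosts differed by 0.20, 0.10 and 0.09.

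**Figure D3:**
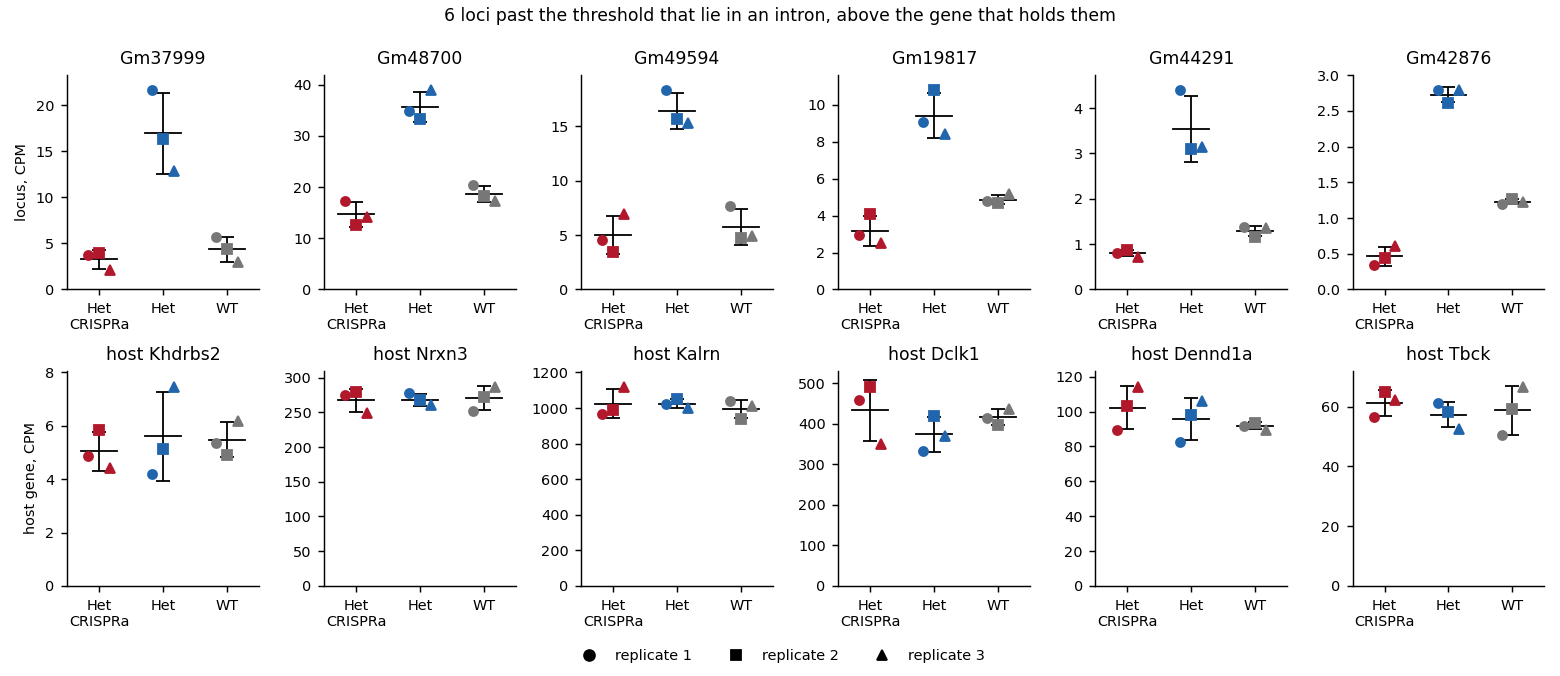
CPM in each library of the 6 intronic loci past the threshold (upper panels) and of the gene that holds each (lower panels), Het CRISPRa left, Het in the middle and WT right. Points are libraries, lines the mean and bars the SD. Every locus is lower in all 3 Het CRISPRa libraries than in all 3 Het libraries, while the host genes overlap.

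In all 7 loci the 3 Het libraries also stood above the 3 WT libraries. Gm48700 was at 20.5, 18.3 and 17.3 CPM in WT, and Gm37999 at 5.67, 4.41 and 2.96 CPM in WT. The Het libraries are shared by both comparisons, so that the position of WT is no separate evidence that Het CRISPRa is low. Reads of an intronic locus and of unspliced RNA of a host on the same strand cannot be told apart.

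The class was then described as a whole, without a test, since it was chosen after its values were seen. Of 266 tested TEC loci in an intron of a protein-coding host and on its strand, 59 had all Het CRISPRa libraries below all Het libraries, 22.2%, against 4.61% of all genes. By size, 38 of them (14.3%) were lower by 1 or more on the log2 scale, against 125 of all 18967 genes (0.659%). The median of the 266 was 0.02, so that the lower loci form a subset and not a shift of the class. Of their 186 tested host genes, 7 (3.76%) did not overlap downwards and none was lower by 1 or more. TEC loci on the opposite strand of a host did not overlap downwards in 7.06% of 85, and TEC loci with no host in 6.02% of 249. With each library left out in turn, the count of 38 ran between 37 and 47, of 242 to 260 loci tested. The count over all genes, 125 in the main fit, then ran between 111 and 205.

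The authors' deposited table of the same comparison calls 76 of 23964 features (0.317%) at an adjusted p under 0.05, 12 higher (0.0501%) and 64 lower (0.267%). Of the 12 higher, 2 are the vector features sadCas9Vp64 and McherryPuro, which leaves 10. All 8 genes called in limma are among the 76, and the 72 that were tested here had the same sign. Of the 64 lower features, 28 are TEC loci and 26 of those lie on the strand of a protein-coding gene that spans them. Among the 18967 genes tested here, 615 are TEC loci and 281 of those lie on the strand of such a gene. The hosts of these, 25 tested when counted once per locus, had a median difference of 0.07, from -0.11 to 0.27. Dlg2 enters this count for each of Gm44677, Gm44678 and Gm45201, so that the hosts are not all distinct genes. Among those with the smallest adjusted p in the deposited table, Gm42970, in the ankyrin gene Ank2, was at 11.7, 12.6 and 12.0 CPM in Het CRISPRa and 53.8, 42.7 and 26.5 CPM in Het, and its limma adjusted p was 0.0563. Gm44242, in the synaptic adhesion gene Lrrtm4, was at 18.2, 12.4 and 14.7 CPM in Het CRISPRa and 56.0, 37.8 and 32.4 CPM in Het, with 0.0652. Ank2 and Lrrtm4 themselves differed by 0.07 and 0.12. Mir99ahg, the host transcript of a microRNA cluster, was at 16.5, 12.4 and 12.5 CPM in Het CRISPRa and 56.6, 42.0 and 30.0 CPM in Het, -1.57 ± 0.26 with an adjusted p of 0.0652 in limma.

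Of the 64 lower features, 9 are mitochondrially encoded mRNAs, which make up the mitochondrial share. Among the other 55, Het CRISPRa replicate 1, lowest of its group in mitochondrial share, was the highest Het CRISPRa library for 33. In Het, replicate 1 had the highest share and was the highest library for 43, and replicate 3 had the lowest share and was the lowest for 41. In WT, replicate 3 had the lowest share and was the lowest library for 39, while replicate 1 was the highest for 44 although replicate 2 had the highest share. For 19 of the 64 the Het CRISPRa libraries also lay below all WT libraries, and for 34 of the 64 all Het libraries lay above all WT libraries. The part of the mitochondrial share in these differences was not tested. The counts of highest and lowest libraries were not taken over all genes, so the order is not shown to be particular to these features.

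The 1 gene called higher was Gm3020, at 3.18, 1.98 and 2.07 CPM in Het CRISPRa and listed at 0 in all Het and WT libraries. It is a protein-coding gene of chromosome 14 with no known role, and its adjusted p was 0.0121. It entered the test through the Het CRISPRa libraries alone, so that it had to differ, and its fitted value of 2.52 depends on the pseudocount, from 1.13 to 4.62. The gene belongs to a multi-copy cluster of 99 annotated protein-coding genes, 96 of them with predicted names. The 54 members in the table summed to 112, 113 and 108 CPM in Het CRISPRa and 100, 111 and 102 CPM in Het. The neighbour Gm10409 did the reverse, listed at 0 in all Het CRISPRa libraries and at 1.22, 1.38 and 5.01 CPM in Het. How reads that match several copies were treated is not given in the sources used here, so that both genes are uncertain.

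Among named genes with higher values in Het CRISPRa, none passed in limma. Adnp, a chromatin regulator in which mutations cause a form of autism, was at 83.8, 90.7 and 112 CPM in Het CRISPRa and 39.9, 59.5 and 67.1 CPM in Het, 0.80 ± 0.18 with an adjusted p of 0.323, and WT lay at 58.3, 71.2 and 79.7 CPM. The authors' deposited table calls it, with a log2 fold change of 0.761 and an adjusted p of 0.0281. Impg2, a proteoglycan gene best known in retina, was at 10.3, 10.4 and 9.53 CPM in Het CRISPRa and 5.16, 5.33 and 5.52 CPM in Het, 0.86 ± 0.18 with an adjusted p of 0.177. The deposited table calls Impg2 as well, with an adjusted p of 0.0466. It also calls Fam220a, with an adjusted p of 0.0389. Fam220a was at 14.9, 7.45 and 0.502 CPM in Het CRISPRa and 0.119, 0.121 and 0.438 CPM in Het. Its WT libraries lay at 0.932, 17.2 and 0.708 CPM, and another entry of the same name differed by -1.51 ± 0.98. Gm42427, a TEC locus it calls with 0.00152, was at 21.4, 21.3 and 18.0 CPM in Het CRISPRa and 8.74, 11.5 and 11.3 CPM in Het. Islr had 1.34 ± 0.26 from 3.78 to 4.14 CPM in Het CRISPRa and 0.908 to 2.02 CPM in Het, with an adjusted p of 0.127. The groups of Adnp, Impg2 and Islr did not overlap, beside 5.37% of all genes upwards. Genes were named here for groups that do not overlap or for a call in the deposited table, so that this is no separate evidence. Polr2b, the second subunit of RNA polymerase II, Snap29, a membrane fusion protein, Lats1, a Hippo pathway kinase, and Rabgap1l had differences of 0.49, 0.73, 0.38 and 0.48 with adjusted p-values of 0.655, 0.741, 0.810 and 0.468.

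Among named genes with lower values, Rpl15, a ribosomal protein gene with processed copies, was at 29.0, 32.2 and 25.0 CPM in Het CRISPRa and 67.7, 57.9 and 45.6 CPM in Het, -0.97 ± 0.18 with an adjusted p of 0.106. Igsf11, a synaptic adhesion gene, was at 46.8, 41.7 and 37.7 CPM in Het CRISPRa and 87.2, 68.6 and 61.7 CPM in Het, -0.77 ± 0.14 with 0.120. Semp2l1 lies on the opposite strand of an intron of Khdrbs2, the host of Gm37999, and was at 18.7, 16.8 and 13.0 CPM in Het CRISPRa and 156, 100 and 42.5 CPM in Het, -2.41 ± 0.45 with 0.120. All 3 genes were highest in Het replicate 1 and lowest among Het in replicate 3, and for Semp2l1 the strand setting of the counting is not given in the sources used here. Epha5, a guidance receptor gene, differed by -0.58 ± 0.13 with an adjusted p of 0.301. It was at 108, 106 and 77.2 CPM in Het CRISPRa and 163, 138 and 133 CPM in Het. The authors' deposited table calls Rpl15, Igsf11, Semp2l1 and Epha5 lower, with adjusted p-values of 2.34e-05, 0.00108, 0.000774 and 0.0303. For Rpl15, Igsf11 and Epha5 all Het libraries also lay above all WT libraries, while for Semp2l1 Het and WT overlapped.

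All 13 mitochondrially encoded mRNAs had lower values in Het CRISPRa, and none passed over all genes. Their sum was 6997, 7478 and 7922 CPM in Het CRISPRa, against 17693, 13473 and 8524 CPM in Het replicates 1, 2 and 3 and 10036, 11724 and 7412 CPM in WT. The Het CRISPRa libraries lay close together below all Het libraries, and Het replicate 3 lay near them. The median difference of the 13 was -0.77, 10 of them did not overlap, beside 4.61% of all genes downwards, and mt-Atp6, a subunit gene of ATP synthase, had the smallest p. It was at 561.9, 588.4 and 732.7 CPM in Het CRISPRa and 1481, 1371 and 851.5 CPM in Het, -0.94 ± 0.19 with an adjusted p of 0.165. The authors' deposited table calls 9 of these mRNAs lower, beside 0.267% of all its features. Such transcripts are made outside the nucleus, and how much cytoplasm the sorted nuclei carried was not measured here. Of 28 ribosomal protein mRNAs, 26 had values below 0, beside 43.2% of all genes, with a median of -0.21, and none was called. Their sum was 1147, 1012 and 994 CPM in Het CRISPRa and 1524, 1210 and 1002 CPM in Het, so that the groups overlapped.

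**Figure D4:**
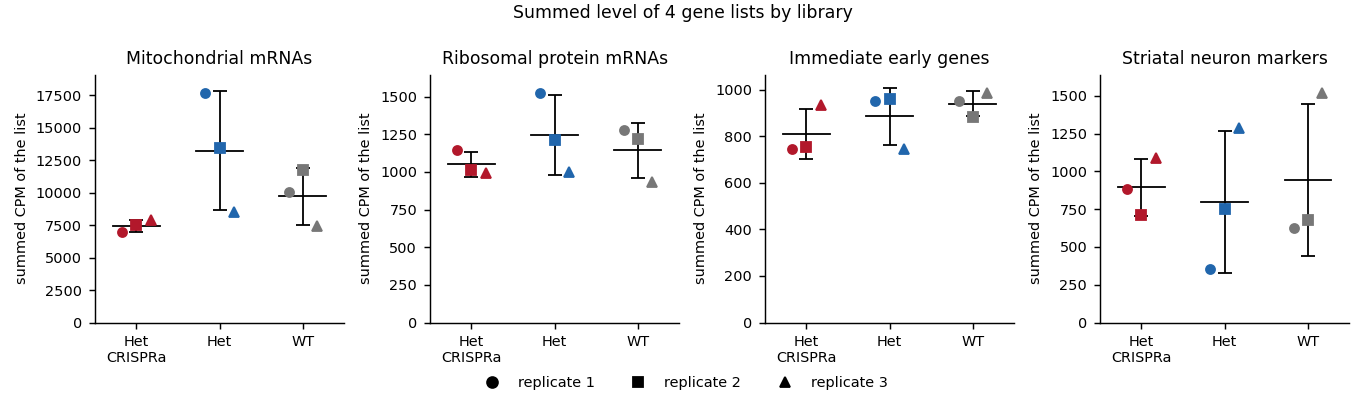
Summed CPM of 4 gene lists in each library, Het CRISPRa left, Het in the middle and WT right. Points are libraries, lines the mean and bars the SD. Mitochondrially encoded mRNAs sum to 6997 to 7922 CPM in Het CRISPRa and 8524 to 17693 CPM in Het, and the striatal markers of Het libraries spread from 351 to 1285 CPM.

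In all, 37 lists of channel, synapse, activity, immune, stress and cell type genes held 509 tested genes, and limma called none in either direction. An unadjusted p under 0.05 was reached by 35 (6.88%, beside 5.25% of all genes). Of these, 8 were higher and 27 lower, and 10 of the lower were mitochondrially encoded mRNAs. The authors' deposited table calls 11, namely 9 mitochondrially encoded mRNAs, Adnp and the antisense RNA Kcnq1ot1. Of the 35 lists with at least 3 tested members, 30 had a median within 0.2 of 0. Potassium channel genes had 26 of 33 values above 0 and a median of 0.14, where 43.2% of all genes were below 0. Kcna2, an axonal channel gene of the Kv1 family, went against them, at 116.7, 114.9 and 96.8 CPM in Het CRISPRa and 156.6, 168.4 and 132.7 CPM in Het. Its difference was -0.47 ± 0.11 with an adjusted p of 0.323, and WT lay between at 124.0 to 129.6 CPM. Kcnq5, a subunit of the M-type channel, was at 90.1, 103.2 and 98.6 CPM in Het CRISPRa and 82.4, 76.1 and 82.0 CPM in Het, 0.28 ± 0.10 with an adjusted p of 0.810. Of the 33, 5 did not overlap upwards and 2 downwards, beside 5.37% and 4.61% of all genes. Genes of the axon initial segment, where Nav1.2 resides, had a median of 0.07 over 15 genes, with Nfasc at 0.17 ± 0.10 and Fgf12, an intracellular partner of sodium channels, at 0.41 ± 0.20. Presynaptic release genes had a median of 0.12 over 21, excitatory postsynapse genes 0.04 over 22, calcium channels 0.05 over 21 and GABA receptor genes 0.02 over 15. Rims2, a scaffold of the vesicle release site, was at 133, 135 and 137 CPM in Het CRISPRa and 177, 166 and 140 CPM in Het, -0.25 ± 0.10 with an adjusted p of 0.810.

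Of 19 immediate early genes tested, which neurons switch on with firing, 15 were below 0 with a median of -0.11, and none was called. Over all genes tested, 43.2% were below 0. Arc, which acts at active synapses, was at 89.0, 88.7 and 103 CPM in Het CRISPRa and 149, 131 and 93.5 CPM in Het, -0.38 ± 0.17 with an adjusted p of 0.810. Fos differed by -0.13 ± 0.18, Egr1 by -0.11 ± 0.13 and Npas4 by -0.07 ± 0.12. The sum of the list was 745, 752 and 935 CPM in Het CRISPRa and 952, 959 and 743 CPM in Het. All Het CRISPRa libraries thus lay within the Het range, whose lowest library was replicate 3. Of 22 late response genes, 17 were below 0 with a median of -0.15, likewise with no call. The secretory granule genes Scg2 and Vgf did not overlap between groups. Scg2 was at 52.1, 54.7 and 56.0 CPM in Het CRISPRa and 79.1, 65.1 and 66.7 CPM in Het, -0.37 ± 0.13, and Vgf differed by -0.28 ± 0.11, both with an adjusted p of 0.810.

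Genes of the response to virus were looked at because Het CRISPRa mice received rAAV. Of 18 interferon-induced genes tested, 16 were above 0 with a median of 0.21, and none was called. Over all genes tested, 43.2% were below 0 and the median was 0.04. Among the Het CRISPRa libraries, replicate 1 was highest for 14 of the 18, replicate 2 for 1 and replicate 3 for 3. Replicate 1 also had the most activator RNA, and the part of that in these values was not tested. Irf7, a regulator of interferon genes, was at 4.48, 0.930 and 0.948 CPM in Het CRISPRa and 0.474, 0.424 and 1.09 CPM in Het. Oas2, an antiviral enzyme gene, was at 4.14, 0.558 and 0.502 CPM in Het CRISPRa and 0.534, 0.0606 and 0.746 CPM in Het. Het CRISPRa replicates 2 and 3 thus lay within or near the Het range for both genes. Rigi, a sensor of viral RNA, was at 3.85, 1.80 and 1.73 CPM in Het CRISPRa and 0.711, 0.969 and 1.44 CPM in Het, 0.90 ± 0.32 with an adjusted p of 0.810. Reactive glia genes had 8 of 10 values below 0 with a median of -0.26, and Gfap, the astrocyte reactivity gene, lay at 0.919, 0.124 and 0.390 CPM in Het CRISPRa and 0.474, 0.908 and 0.696 CPM in Het. Microglia markers summed to 39.9 to 46.3 CPM in Het CRISPRa and 35.3 to 57.7 CPM in Het.

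Markers of striatal neurons, which cortex should hold few of, varied widely between libraries within each group. Their sum was 885, 713 and 1090 CPM in Het CRISPRa, 351, 752 and 1285 CPM in Het and 626, 680 and 1520 CPM in WT. The dopamine receptor gene Drd2 was at 19.8, 12.0 and 22.4 CPM in Het CRISPRa and 1.78, 13.6 and 30.1 CPM in Het. Het replicate 1 was lowest and Het replicate 3 highest, in the reverse order of the mitochondrial share, and all 15 markers overlapped between the groups. In Het CRISPRa, replicate 3 was highest in both the share and the striatal sum. In WT, replicate 3 had the lowest share and the highest sum, but replicates 1 and 2 were not in reverse order. The median difference of the list was 0.35, the highest of the lists, and over the alternatives it lay between -0.16 and 0.88. Markers of cortical neurons had medians near 0. Slc17a7, the vesicular glutamate transporter of cortex, was at 935, 1066 and 1064 CPM in Het CRISPRa and 901, 919 and 925 CPM in Het, 0.16 ± 0.09 with an adjusted p of 0.810. The medians of upper layer, deep layer and interneuron markers were 0.01, 0.07 and 0.03.

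**Figure D5:**
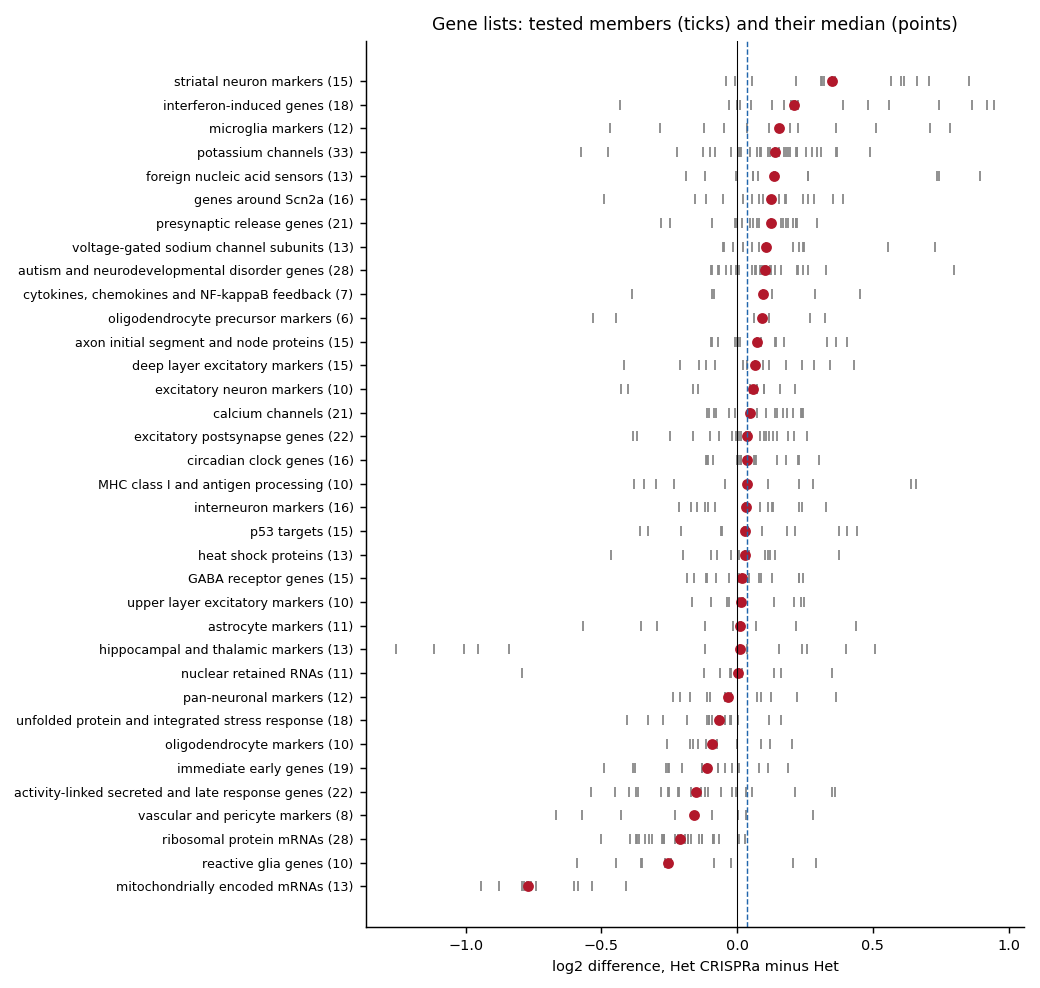
Log2 differences, Het CRISPRa minus Het, of the tested members of 35 gene lists (grey ticks) with the median of each list (red points) and the number tested in brackets. The dashed blue line is the median of all genes, 0.04. The mitochondrially encoded mRNAs lie lowest with a median of -0.77 and the striatal markers highest with 0.35.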

How the data were processed

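PolyA RNA of NeuN-sorted cortical nuclei was measured in 3 Het CRISPRa, 3 Het and 3 WT libraries. The authors deposited 1 table of CPM for 39008 features in which each library sums to 1e+06. Their deposited table of the same comparison, Het CRISPRa over Het, gives a base mean signal, a log2 fold change with its SE, a test statistic (a score), a p-value and an adjusted p-value per feature. STAR 2.7.8a, featureCounts, DESeq2 1.44, R 4.4 and the builds mm39 and GRCm39 are named in the submitters' processing notes, with no role or order. The strand setting and the treatment of reads with several matches are not given in the sources used here.

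Depth was read from the CPM value of 1 read. At that scale 79.9 to 82.4% of values above 0 lay within 0.01 of whole reads, so no count test was run. The 18967 genes that reached 0.5 CPM in 3 or more of the 9 libraries were tested, vector features apart, on log2(CPM + 0.5). The models were linear fits with moderated variances and a mean-variance trend, from limma 3.58.1 under R 4.3.3. All 9 libraries were in the fit and the threshold was an adjusted p of 0.05. The test was tried on simulated data. Exact permutation tests were two-sided on mean CPM, in Python 3.11.15 with numpy 2.4.6, pandas 2.3.3 and scipy 1.17.1, and matplotlib 3.10.9 drew the plots. Floors are 3 reads of a library.

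Classes and host genes come from GENCODE vM21 (GRCm38), which held 90.4% of the tested identifiers, and no coordinates were taken from it. Named are Scn2a, the vector features, sodium channel genes and genes around Scn2a, up to 4 members with the smallest p per list, up to 10 genes per direction with a mean of at least 2 CPM and groups that do not overlap, and up to 10 per direction from the deposited table. The comparison, the 37 lists and the rule were chosen with earlier results of these data known.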

Additional observations from a re-analysis of the deposited data

How the results depend on the processing

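The 8 calls, 1 higher and 7 lower, depend on the settings. With a pseudocount of 2 CPM there were 14 calls, 13 of them lower. With no filter on low values there were 2 calls, 1 lower. With a mean of at least 2 CPM there were 2, both lower, and 0 higher, since Gm3020 left the test. With the 6 Het CRISPRa and Het libraries alone there were 5, 4 of them lower. A pseudocount of 0.1 CPM, median-of-ratios or quantile scaling and a robust fit gave 7 or 8. Leaving out 1 library at a time gave 0 to 38 calls, 0 to 3 higher and 0 to 35 lower, and 0 to 8 calls of list members. The unadjusted p was under 0.05 for 577 genes without Het CRISPRa replicate 2, 1483 without its replicate 3 and 800 without Het replicate 2, the settings with 0 calls. Het replicate 3, whose omission gave 38, was the Het library nearest to Het CRISPRa in mitochondrial share, at 0.892%.

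Library numbers were 10, 12 and 15 in Het CRISPRa, 7, 8 and 17 in Het and 9, 11 and 16 in WT, replicates 1, 2 and 3 in turn. What these numbers record is not stated, and a shared preparation was not tested. For libraries with the same replicate number the labels state no link beyond that number. Their deviations from the group means correlated across genes at 0.0239, 0.0155 and -0.0844 between Het CRISPRa and Het, at 0.109, -0.0650 and -0.110 between Het CRISPRa and WT, and at 0.337, 0.0339 and 0.418 between Het and WT, replicates 1, 2 and 3 in turn. A fit with the replicate number as a block gave 31 calls, 2 higher and 29 lower, with 2 list members among them, and Adnp then had an adjusted p of 0.0157.

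Scn2a differed by 0.16 to 0.34 over the 15 alternatives, with adjusted p-values of 0.187 to 1.0, so no alternative moved it past the threshold. The count of 38 intronic TEC loci lower by 1 or more was defined after the data were seen. It was 59 (22.2%) with a pseudocount of 0.1 CPM and 20 (7.52%) with a pseudocount of 2 CPM, where low loci are shrunk more. Over all genes the counts were 295 (1.56%) and 44 (0.232%). In the simulation with 3 libraries a group, most changes of 1.5-fold and of 2-fold were not recovered, and its rates may not carry over to these libraries. The floors cover counting error only.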

Other observations

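Lists not described above gave no call in limma either. Of 28 autism and neurodevelopmental disorder genes, 21 had values above 0 in Het CRISPRa against Het, with a median of 0.10 beside 0.04 over all genes. Of all genes, 43.2% were below 0. Besides Adnp, Kmt5b, a histone methyltransferase gene, was at 106, 119 and 99.2 CPM in Het CRISPRa and 65.9, 93.3 and 102 CPM in Het, 0.33 ± 0.15 with an adjusted p of 0.810. Of 18 genes of the unfolded protein response, 15 were below 0 with a median of -0.07. Pdia6, a disulfide isomerase gene, was at 135, 124 and 116 CPM in Het CRISPRa and 183, 145 and 130 CPM in Het, -0.27 ± 0.12 with an adjusted p of 0.810. The lists of p53 targets and circadian clock genes had medians of 0.03 and 0.04.

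Kcnq1ot1, an imprinted nuclear antisense RNA, had the lowest difference of the 11 nuclear retained RNAs tested. It was at 172, 162 and 124 CPM in Het CRISPRa and 374, 246 and 195 CPM in Het, with WT at 239, 224 and 147 CPM. The difference was -0.79 ± 0.23 with an adjusted p of 0.741 in limma, while the authors' deposited table gives -0.872 and an adjusted p of 0.0162. Het replicate 1 was again the highest library. Malat1, a nuclear RNA of nearly all cells, was at 2396, 2848 and 1812 CPM in Het CRISPRa and 1553, 2008 and 1909 CPM in Het, so that the groups overlapped.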
